A study of Ictidomys tridecemlineatus with 31 samples.

Results

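The proteasome genes of the kidney of the 13-lined ground squirrel (13-LGS), a hibernating rodent, were followed through the year. Members were the genes whose symbol begins with Psma, Psmb, Psmc, Psmd, Psme, Psmf or Psmg and a digit. The rule matched 47 of the 12863 genes in the table, each in 1 row, and 46 of them encode proteasome subunits, regulators or assembly factors. The exception, Psmc3ip, is a partner of the meiotic recombinases that only shares the symbol, and it is counted among the 47 but described apart. PSMA8 and PSMB11, the testis and thymus subunits, were not among the genes of this table.

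RNA was measured in 31 kidneys, each from 1 untreated captive animal of either sex, assigned to a state by its recorded body temperature and perfused before the kidney was taken. The 2 active states were SA (summer active, homeothermic and fattening; 5 animals) and SpD (spring dark, homeothermic after the last torpor bout but still in the dark hibernaculum; 5 animals). The 4 hibernation states were IBA (rewarmed between bouts of torpor; 5 animals), Ent (entering torpor as body temperature falls; 5 animals), EAr (arousing from torpor and still cold; 5 animals) and LAr (later in the same rewarming; 6 animals). Animals K113 (LAr) and K137 (SA), which the study set aside as outliers, entered no comparison below and are described at the end, which left 29 animals. Each value is an rlog value, a normalised read count on the log2 scale from which the authors had removed the difference between their 2 sequencing experiments. SA, EAr and LAr were sequenced in experiment 2 alone, whereas IBA, Ent and SpD had 3 animals each in experiment 1 and 2 each in experiment 2.

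The proteasome degrades proteins that carry chains of ubiquitin. Its 20S core is a barrel of alpha subunits (Psma), which gate the entrance, and beta subunits (Psmb), some of which cut peptide bonds. A 19S cap of ATPases (Psmc), which unfold the substrate, and non-ATPase subunits (Psmd), which bind ubiquitin and remove it, closes the barrel and makes the 26S proteasome. Other caps (Psme1 to Psme4) open the core without ATP, Psmf1 binds and can inhibit it, and Psmg1 to Psmg4 with Psmd5, Psmd9 and Psmd10 are chaperones that build it and then leave. In cells exposed to interferon, Psmb8, Psmb9 and Psmb10 replace the catalytic subunits and give the immunoproteasome, which favours peptides for antigen presentation. Subunit genes of the 26S proteasome are known to rise and fall together under the transcription factor Nfe2l1.

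Proteasome genes varied little across the year. The range of the 6 state means had a median of 0.19 log2 units over the 47 members and of 0.32 over all genes, and it was below 0.5 for 46 members (97.9%) and for 75.9% of all genes. The widest range was 0.51 (Psmb8) and the narrowest 0.06. The median SD over the 29 animals was 0.119 log2 units for the members and 0.185 for all genes. All genes were not matched to the members by level, and rlog shrinks differences of low genes. No member differed by 2-fold in any comparison of states. Among all genes a 2-fold difference was found in 0.917% for hibernation against active, 1.31% for SA against SpD, 2.55% for IBA against SA, 0.132% for Ent against IBA, 0.155% for EAr against Ent, 0.334% for LAr against EAr, 1.21% for IBA against LAr, 0.863% for SpD against IBA and 0.630% for IBA against EAr. For the members the 95% confidence interval lay within 1 log2 unit of no difference for all 47 members in each of the 9 comparisons of states. Differences between the experiments were at most 0.15 log2 units among the members, and none passed the test, where 5 of the 12863 genes did. The authors had already removed that difference from the values, so this test cannot show whether the experiment mattered for the members. In bulk kidney, fewer cells of a type and less RNA per cell cannot be told apart.

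**Figure D1:**
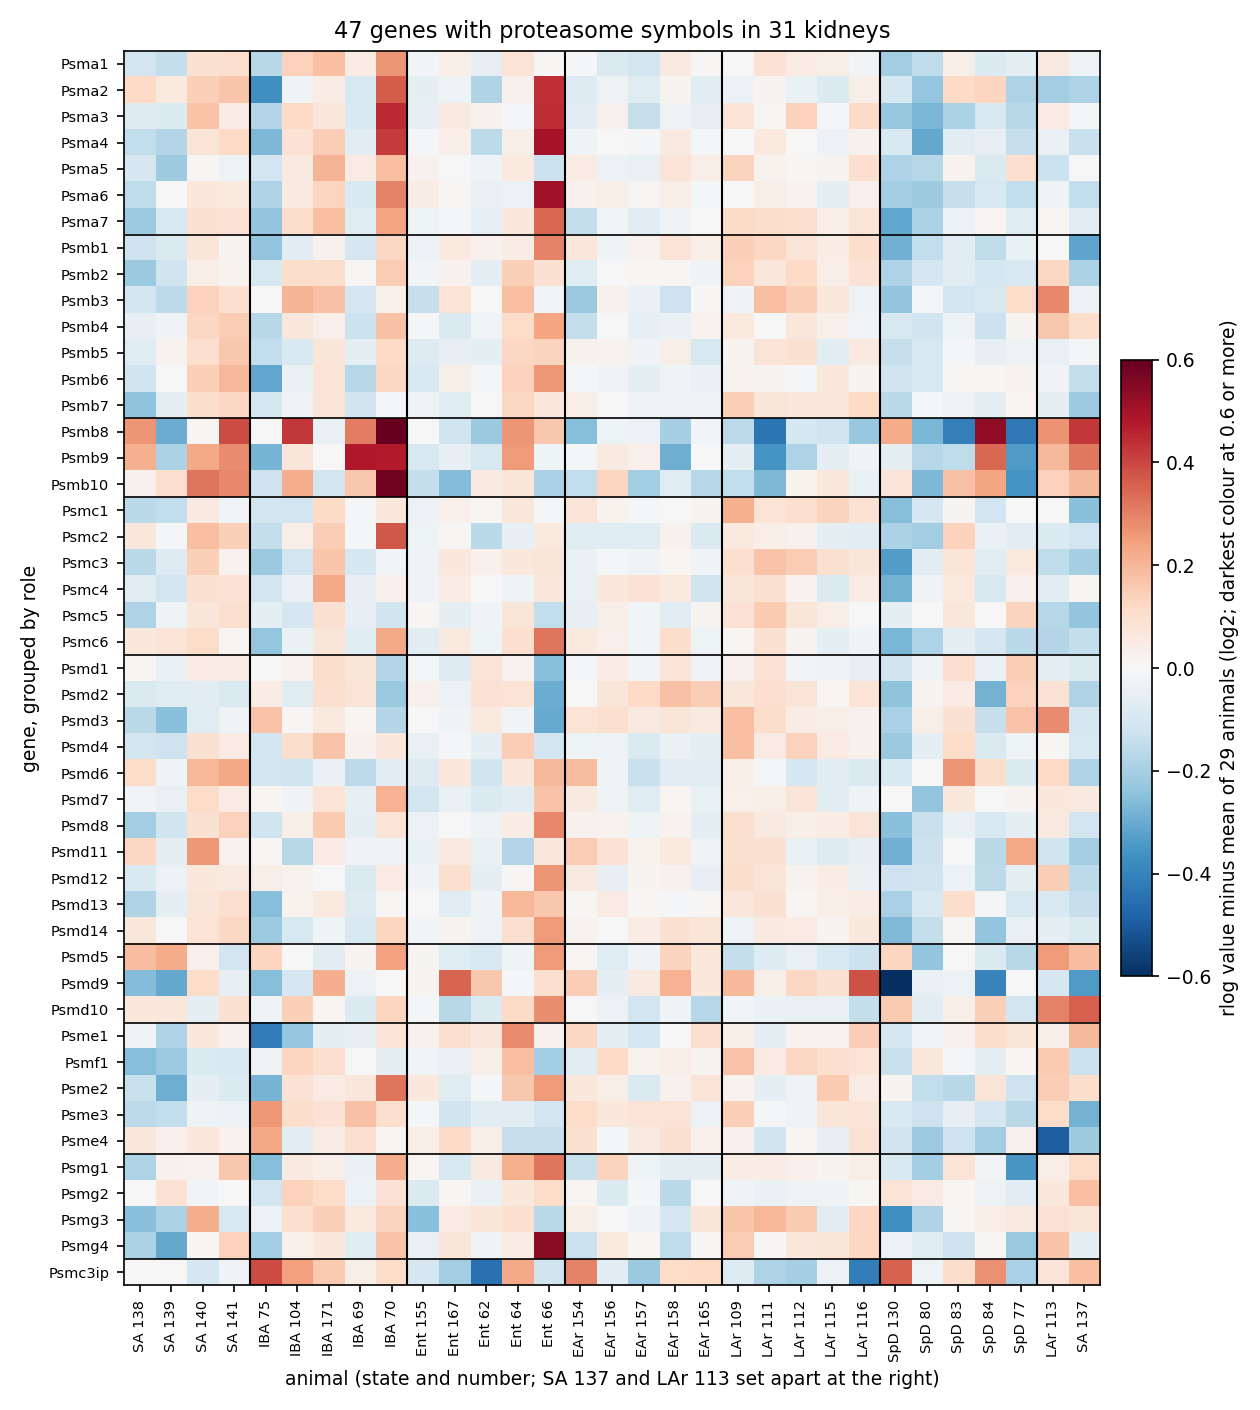
Each of the 47 members (rows, grouped by role) in each of the 31 animals (columns, grouped by state), coloured by the rlog value minus the mean of 29 animals in log2 units. Most cells are pale, Psmb8, Psmd9, Psmb9, Psmb10 and Psmc3ip are the most varied rows (SD over 29 animals of 0.21 to 0.30), and IBA 70, Ent 66, IBA 75 and SpD 130 stand out as columns.

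The first question was whether the level of a proteasome gene differed among the 6 states at all. By the moderated F test of limma, adjusted over all genes (Benjamini-Hochberg, q below 0.05), 8 of the 47 members (17.0%) differed: Psmb1, Psmb2, Psmc1, Psmd14, Psmd9, Psmf1, Psme3 and Psmc3ip. The share among all genes was 46.1%. At the study's threshold of 0.001, Psme3 was left (q = 0.000621), where 9.34% of all genes were called. No member passed 0.001 in any pair of states, where the shares of all genes were 0.0544% (SA against SpD), 3.15% (IBA against SA), 0.746% (Ent against IBA), 1.43% (IBA against LAr) and 1.25% (SpD against IBA) in the pairs with members called at 0.05. When IBA 70, Ent 66 and SpD 130 were left out together, 5 members were called, and the count was 3 without SpD 130 alone, 4 without SpD 84 and 5 without LAr 109.

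The seasonal comparison set the mean of the 4 hibernation states against the mean of the 2 active states. In hibernation 8 members rose and 1 fell, 9 of 47 in all (19.1%), where 33.4% of all genes were called. The share that rose, 17.0%, was near the 16.6% among all genes, and the share that fell, 2.13%, was below the 16.8% among all genes. At 0.001 Psme3 alone was left, beside 9.73% of all genes. The rises were in Psma5, Psmb1, Psmb2, Psmc1, Psmd9, Psmf1, Psme2 and Psme3, and ranged from 0.11 (Psma5, SE 0.040) to 0.27 log2 units (Psmd9, SE 0.073). Psmd6, a lid subunit of the cap, fell by 0.12 (SE 0.043, limma q = 0.034), and that call was lost when the medians of the animals were made equal (8 higher and none lower), with all 31 animals, in experiment 2 alone, and without SA 138, SA 140, SA 141, SpD 83 or SpD 84. The difference was above 0 for 33 of the 47 members, against 50.1% of all genes, and its median was 0.06 log2 units against 0.00. Without IBA 70, Ent 66 and SpD 130 it was above 0 for 29 members with a median of 0.04, Psma5 and Psmb1 were no longer called, Psmd2 and Psmd3 were called higher, and Psma2 was called lower beside Psmd6. Of the 21 markers of kidney cell types measured, 7 were called, near the 33.4% share among all genes. All 7 were lower in hibernation, where 16.8% of all genes were lower. Among them were Slc34a1 of the proximal tubule (-0.85), Aqp2 of principal cells (-0.70) and Col1a1 of fibroblasts (-0.64). Of the 4 proximal tubule markers 1 was called and 2 were above 0, and of the 2 principal cell markers 1 was above 0. The part of the cell types in the proteasome differences was not tested.

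**Figure D2:**
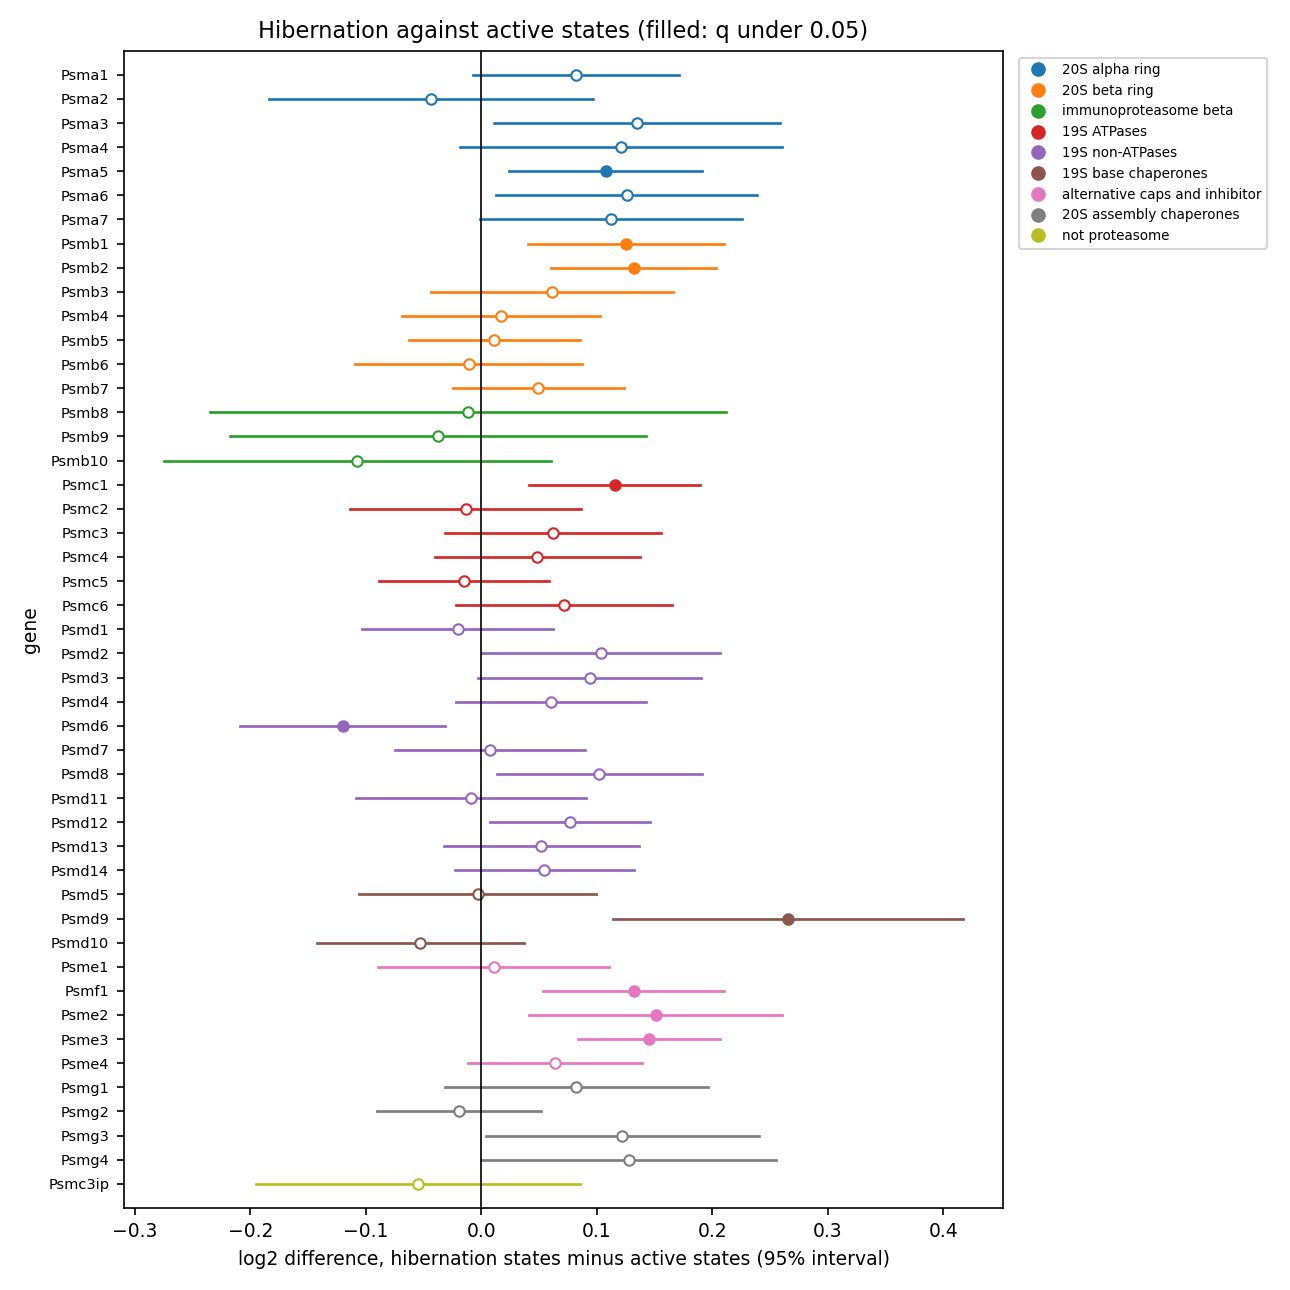
The log2 difference between hibernation and active states for each member (x axis, points with 95% intervals), coloured by role, with filled points for q below 0.05. All intervals lie within 0.5 of no difference, Psmd9 at 0.27 is farthest from it, and the 3 immunoproteasome genes lie left of 0.

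Experiment 2 alone gave a larger count for this comparison, 18 of the 47 members called, beside 5022 of the 12863 genes. In that fit the share of members called was close to the share of all genes, whereas it was lower than that share in the fit of both experiments. Of the 18 members 15 were higher and 3 lower (Psmb8, Psmb10 and Psmd10), and shares of all genes by direction are not given for that fit. The counts ranged from 4 (without SA 138) to 14 (without IBA 75) when animals were left out one at a time. Psmb2, Psmd9, Psmf1 and Psme3 were called whichever animal was left out.

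In the alpha ring, the gate of the core, 6 of 7 genes had higher means in hibernation, and 1, Psma5, passed the test (0.11, limma q = 0.043). The call of Psma5 was lost when any 1 of 14 of the 29 animals was left out (SA 138, SA 139, IBA 171, IBA 70, Ent 155, Ent 64, EAr 154, EAr 158, EAr 165, LAr 109, LAr 116, SpD 130, SpD 80 or SpD 84), and with all 31 animals. Psma3 had the widest range of state means of the ring, 0.28 log2 units. Psma3 was lowest in SpD, at 10.75, 10.70, 10.78, 10.88 and 10.81 (mean 10.78 ± 0.07 SD, n = 5), and stood at 10.89, 10.89, 11.14 and 11.02 in SA (10.99 ± 0.12, n = 4). The SA and SpD animals did not overlap, but the difference of 0.22 (SE 0.111) did not pass the test over all genes (limma q = 0.20). Non-overlap between SA and SpD held for 2 members, Psma3 and Psmc6, and for 9.37% of all genes.

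In the constitutive beta ring, Psmb1 and Psmb2, which have no catalytic site, rose in hibernation. Psmb2 had a mean of 11.07 ± 0.13 in SA (n = 4) and 11.03 ± 0.05 in SpD (n = 5), and means between 11.13 and 11.23 in the 4 hibernation states (n = 5 each), a difference of 0.13 (SE 0.035, limma q = 0.0052). Psmb1 differed by 0.13 as well (SE 0.041, limma q = 0.021), a call that was lost without SpD 130, SA 138 or SA 139. The SpD animals of Psmb1 stood at 11.61, 11.75, 11.83, 11.75 and 11.86, and those of LAr, the highest state, at 12.04, 12.02, 11.97, 11.94 and 12.00, above each of them. LAr against SpD was not among the comparisons, so no share of all genes stands beside it.

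The 3 catalytic subunits were among the steadiest genes of the ring. Psmb5 carries the chymotrypsin-like site, Psmb6 the caspase-like site and Psmb7 the trypsin-like site. Ranges of their state means were 0.12, 0.13 and 0.14 log2 units, and none was called in any comparison as fitted (Psmb7 was lower in IBA than in LAr once medians were made equal). Psmb3 and Psmb4 had like ranges, 0.14 and 0.12. Their seasonal differences were 0.01 (95% interval -0.06 to 0.09) for Psmb5, -0.01 (-0.11 to 0.09) for Psmb6 and 0.05 (-0.03 to 0.12) for Psmb7. Differences within those bounds could not be told from 0 with this number of animals.

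Among the 6 ATPases of the cap, Psmc1 rose in hibernation, by 0.12 log2 units (SE 0.036, limma q = 0.016). Psmc1 was at 12.05, 12.06, 12.26 and 12.19 in SA and at 11.95, 12.11, 12.23, 12.09 and 12.21 in SpD, and its highest state was LAr, at 12.42, 12.29, 12.31, 12.34 and 12.29, where each animal exceeded all SA and SpD animals. LAr against SA or SpD was not among the comparisons, so no share of all genes stands beside it. The seasonal call of Psmc1 was lost without SA 138. Psmc6 had the widest range among the ATPases, 0.23 log2 units, with the lowest mean in SpD (10.97 ± 0.08, n = 5) and means of 11.11 to 11.20 elsewhere. Its excess in SA over SpD was 0.25 (SE 0.084) and fell just outside the threshold (limma q = 0.052).

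Of the 11 non-ATPase subunits, Psmd14 and Psmd6 were called. Psmd14 is the metalloprotease that cuts ubiquitin chains from the substrate. Its values were 11.29, 11.23, 11.31 and 11.35 in SA and 10.96, 11.08, 11.23, 10.99 and 11.18 in SpD. SA lay 0.26 log2 units higher (SE 0.069, limma q = 0.020), with the highest SpD animal level with the lowest SA animal. Psmd14 was the 1 member called between SA and SpD (2.13%), where 10.5% of all genes were and 5.47% were higher in SA, and the call was lost without SpD 130, with all 31 animals and without the term for experiment (the difference ranged from 0.18 to 0.32 over the alternatives). Of the 47 members, 38 were higher in SA than in SpD, against 49.1% of all genes, with a median of 0.08 log2 units. Without IBA 70, Ent 66 and SpD 130 the number was 30 and the median 0.03. SpD had 3 of its 5 animals in experiment 1 and SA none, so the comparison rests partly on the term for experiment. In experiment 2 alone, with 2 SpD animals, 9 members were called, 8 of them higher in SA, beside 3401 of the 12863 genes called.

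Psmd6 stood at 11.86, 11.72, 11.95 and 11.98 in SA and at 11.63, 11.63, 11.71, 11.59 and 11.68 in IBA. No IBA animal reached an SA animal, and the difference was -0.26 log2 units (SE 0.079, limma q = 0.022). The call was lost without IBA 104, SA 140 or SA 141, in experiment 2 alone, with all 31 animals and with the pair of states alone. In experiment 2 alone the members called were Psma5 and Psmf1, both higher in IBA, beside 2503 of the 12863 genes called. Between IBA and SA, 2 members were called (4.26%) of 22.9% among all genes, Psmd6 lower and Psme3 higher in IBA, and 4 members did not overlap, where 18.8% of all genes did not. Beside them, 4 of 21 kidney cell markers were called, against 22.9% of all genes. All 4 were lower in IBA, with 3 of the 4 proximal tubule markers among them (Slc34a1 -1.59, Cubn -0.96, Slc27a2 -0.81). Whether the makeup of the tissue had a part in the fall of Psmd6 was not tested. Psme3 rose in the same comparison.

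The base chaperones help to assemble the ATPase ring. Psmd9, which binds Psmc3 during assembly, had the largest seasonal difference of all members, 0.27 log2 units (95% interval 0.11 to 0.42, limma q = 0.0074), or 20.2% on the linear scale of the rlog values. Over the alternatives the difference ran from 0.19, without IBA 70, Ent 66 and SpD 130, to 0.47 in experiment 2 alone, and it was called at 0.05 in all of them. Its animals were at 10.68, 10.63, 11.05 and 10.89 in SA and at 10.24, 10.89, 10.91, 10.54 and 10.93 in SpD. Hibernation values were 10.68, 10.84, 11.16, 10.90 and 10.94 in IBA, and 10.95, 11.29, 11.10, 10.93 and 11.03 in Ent. In EAr they were 11.09, 10.88, 10.99, 11.15 and 11.00, and in LAr 11.13, 10.97, 11.06, 11.03 and 11.32. All LAr animals, 4 of 5 Ent animals and 4 of 5 EAr animals lay above the highest SpD value, whereas IBA overlapped SpD. LAr, Ent and EAr against SpD were not among the comparisons, so no share of all genes stands beside these counts. All 4 hibernation states overlapped SA, where SA 140 reached 11.05. SpD 130, at 10.24, was the lowest animal. SpD differed from IBA by 0.07 within experiment 1 and by -0.61 within experiment 2, so the low SpD values came from experiment 2. Psmd5 and Psmd10 were called in no comparison as fitted, and Psmd10 was lower in hibernation in experiment 2 alone.

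Genes for the alternative caps and the core inhibitor showed the clearest pattern. The fitted seasonal difference was above 0 for all 5, near 0 for Psme1 (0.01), and 3 passed the test: Psme2 (0.15), Psme3 (0.14) and Psmf1 (0.13). Psme3 encodes the nuclear activator that opens the core for substrates without ubiquitin. It was at 11.56, 11.57, 11.69 and 11.68 in SA (11.63 ± 0.07, n = 4) and rose to 11.98, 11.83, 11.81, 11.90 and 11.82 in IBA (11.87 ± 0.07, n = 5). As animals entered torpor it fell to 11.71, 11.60, 11.65, 11.66 and 11.61 (Ent, 11.65 ± 0.04, n = 5). Values in SpD were 11.63, 11.60, 11.67, 11.62 and 11.56 (11.62 ± 0.04, n = 5). Thus each IBA animal exceeded all SA, Ent and SpD animals.

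Psme3 was 0.23 log2 units higher in IBA than in SA (SE 0.055, limma q = 0.0053), fell by 0.22 from IBA to Ent (SE 0.047, limma q = 0.0041) and was lower in SpD than in IBA, by -0.25 (SE 0.047, limma q = 0.0012). These comparisons share the IBA animals and are not independent of each other. In the arousing states Psme3 was intermediate. EAr ranged from 11.69 to 11.83 (mean 11.78 ± 0.06, n = 5) and LAr from 11.70 to 11.86 (mean 11.77 ± 0.07, n = 5). Within experiment 1 the difference from IBA to Ent was -0.26 (3 against 3 animals) and within experiment 2 it was -0.16 (2 against 2). From IBA to SpD the same differences were -0.29 and -0.19. No animal left out removed any of these calls. They were lost in experiment 2 alone, when each pair of states was fitted without the others, and at 0.001, whereas the F test and the seasonal rise passed in every alternative run for them. The groups did not overlap for 1 member, Psme3, from IBA to Ent (7.74% of all genes) and from IBA to SpD (6.51%).

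**Figure D3:**
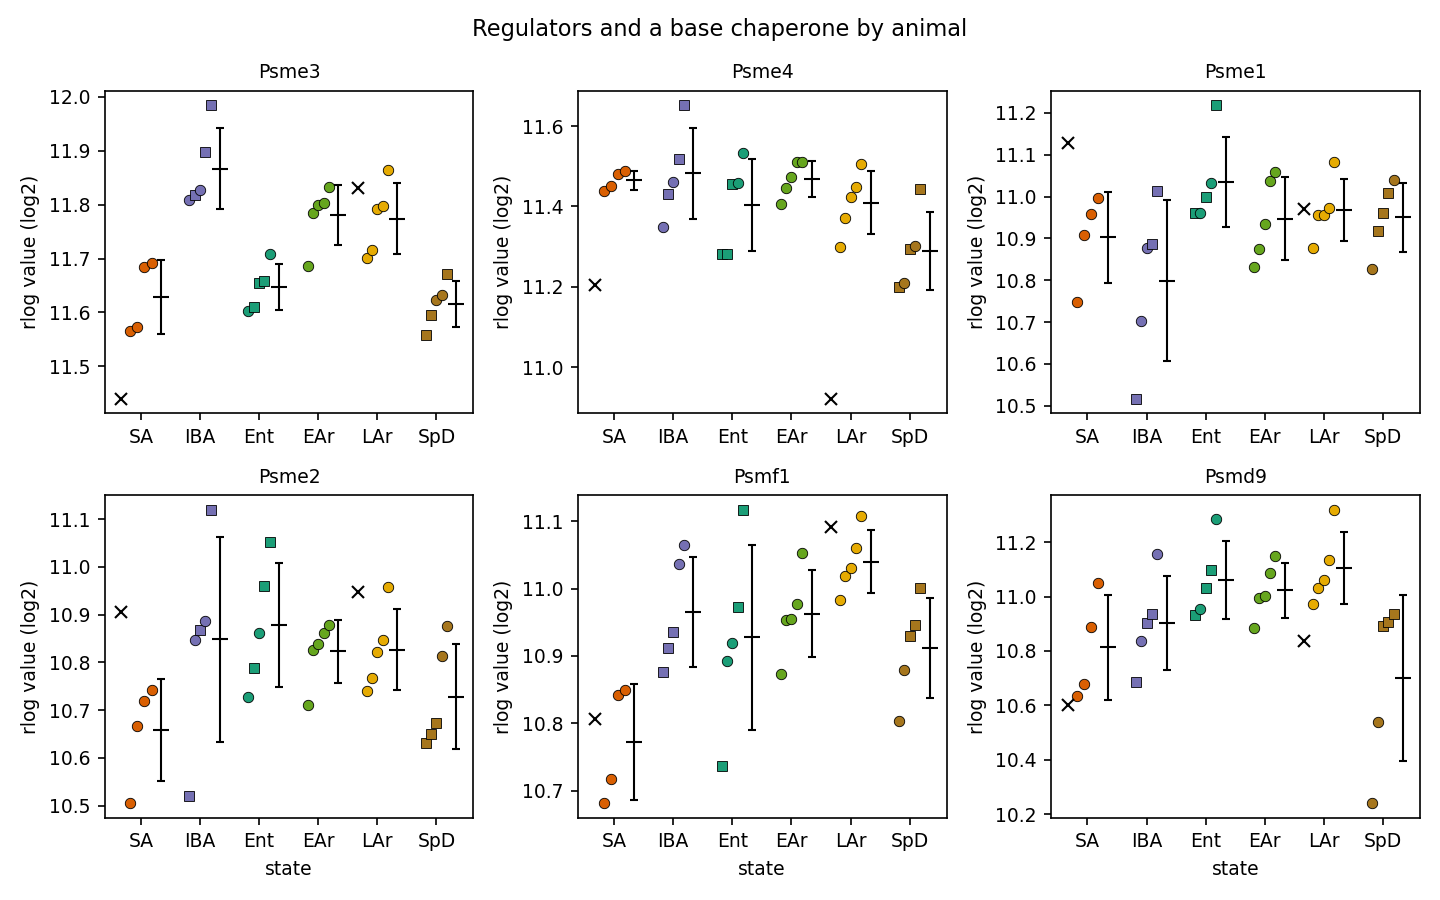
Rlog values (y axis, log2) of Psme3, Psme4, Psme1, Psme2, Psmf1 and Psmd9 in each animal by state (x axis), with squares for experiment 1, circles for experiment 2, black crosses for K137 (SA) and K113 (LAr), and the mean with its SD beside the points. For Psme3 the lowest IBA animal (11.81) lies above the highest SA (11.69), Ent (11.71) and SpD (11.67) animals, while the other genes overlap more between states.

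Psme1 and Psme2, the subunits of the interferon-inducible activator, lie beside each other in the RefSeq annotation (mIctTri1.hap1), with 1 protein-coding gene between them. Psme1 was at 10.52, 10.70, 10.88, 10.89 and 11.01 in IBA and 10.96, 11.03, 11.00, 11.22 and 10.96 in Ent. The rise of 0.24 (SE 0.076) passed the test (limma q = 0.042), although the highest IBA animal lay within the Ent range, and the call was lost without IBA 75, IBA 104, IBA 69, Ent 155, Ent 167, Ent 64 or LAr 112, in experiment 2 alone, with all 31 animals and with the pair alone. The interferon response genes Irf1 (-0.74) and Nlrc5 (-0.67) and the leukocyte marker Coro1a (-0.99) fell in the same step, and their part in the result was not tested. They were the 2 called of 8 interferon and antigen processing genes and the 1 called of 6 leukocyte markers. In each of these lists 1 gene lay above 0, and 13.1% of all genes were called. From IBA to Ent, 2 members were called (4.26%), Psme1 and Psme3, where 13.1% of all genes were. Psme2 was called for the season alone (0.15, SE 0.053, limma q = 0.031), and its IBA animals ranged from 10.52 to 11.12, wider than in any other state. That call was lost without SA 138, SA 139, SpD 80, SpD 83 or SpD 77, with all 31 animals and in experiment 2 alone.

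Psme4 encodes the large single-chain cap found on nuclear proteasomes. It stood at 11.65, 11.35, 11.46, 11.52 and 11.43 in IBA and 11.30, 11.20, 11.29, 11.21 and 11.44 in SpD, a fall of 0.19 (SE 0.057, limma q = 0.029) with SpD 77 inside the IBA range. The call was lost without IBA 75, IBA 69, SpD 130, SpD 80 or SpD 84, in experiment 2 alone, with all 31 animals and with the pair alone. In experiment 2 alone the 5 members called, all lower in SpD, were Psma1, Psmd2, Psmd4, Psmd9 and Psmd14, beside 968 of the 12863 genes called. Between SpD and IBA, 2 members were called (4.26%), Psme3 and Psme4, both lower in SpD, where 11.9% of all genes were called and 5.42% were lower in SpD. The direction was shared more widely: 5 of the 47 members were higher in SpD than in IBA, against 48.1% of all genes, with a median of -0.09 log2 units. Without IBA 70, Ent 66 and SpD 130, 11 members were higher and the median was -0.05. The number called was 7 without IBA 75, 5 without Ent 66, and 1 without SpD 130 or SpD 80.

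Psmf1, the proteasome inhibitor, was at 10.68, 10.72, 10.85 and 10.84 in SA and 11.11, 10.98, 11.06, 11.03 and 11.02 in LAr, without overlap. LAr against SA was not among the comparisons, so no share of all genes stands beside it. The seasonal rise of Psmf1 was 0.13 log2 units (SE 0.038, limma q = 0.010). In IBA every animal lay above every SA animal, where 18.8% of all genes did not overlap. That pair did not pass the test for Psmf1 (0.19, limma q = 0.060). Fbxo7, an F-box protein known to bind Psmf1, was 0.26 higher in hibernation (SE 0.030) and 0.33 higher in IBA than in SA (SE 0.056, limma q = 0.00026).

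The assembly chaperones Psmg1 to Psmg4, which pair and place the alpha subunits, were called in no comparison as fitted. Psmg1 had the widest range of state means among them, 0.22 log2 units, from 9.82 ± 0.17 in SpD to 10.04 ± 0.17 in Ent (n = 5 each), a spread that the SD within each state nearly matched. Psmg3 ranged from 9.27 ± 0.18 in SpD to 9.48 ± 0.10 in LAr, and its seasonal difference was 0.12 (limma q = 0.10).

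Across the torpor bout and the first part of rewarming no member was called. From Ent to EAr the count was 0 of 47, with 1 member at an unadjusted p below 0.05, where 0.257% of all genes were called. From EAr to LAr it was also 0 by limma, where 0.575% of all genes were called. The 1 member at an unadjusted p below 0.05 was Psmc3ip, which is no proteasome gene and was lower in LAr (-0.26). In the latter step, 8 members did not overlap between the groups, where 6.84% of all genes did not, and each of the 8 was higher in LAr, by 0.05 to 0.13 log2 units. They were Psma7, Psmb2, Psmb6, Psmb7, Psmc1, Psmc3, Psmd4 and Psmd8. Psmb7, for example, stood at 11.86, 11.82, 11.79, 11.79 and 11.80 in EAr and 11.96, 11.89, 11.88, 11.89 and 11.94 in LAr. All 7 genes of the beta ring had higher means in LAr, and 33 of the 47 members did, against 50.2% of all genes. For the rings of the core, the spread between animals was smallest in these states. The mean of the alpha ring had an SD of 0.032 in EAr and 0.027 in LAr, against 0.199 in IBA, 0.144 in Ent, 0.104 in SA and 0.086 in SpD. IBA 70 (11.39) and Ent 66 (11.37) were the highest animals of their states in that mean. Both were in experiment 1, as was IBA 75 (10.86), the lowest IBA animal. EAr, LAr and SA were sequenced in experiment 2 alone, and K113 (11.03) had been left out of LAr. The part of the experiment in this spread was not tested. Not every role had its smallest spread in EAr and LAr. The base chaperones had an SD of 0.022 in SA and 0.066 in EAr. The alternative caps and inhibitor had 0.026 in SpD and 0.053 in LAr. Between IBA and EAr, 0 members were called (2 at an unadjusted p below 0.05), where 17.7% of all genes were.

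The 3 immunoproteasome genes are described apart from the other core genes, and none of them passed the F test across the states. After state, sex and experiment were removed, their correlation with the constitutive core genes had a median of 0.32 over 42 pairs. With genes outside the family it was 0.01. Psmb8 varied most, with means from 7.78 ± 0.14 in LAr to 8.28 ± 0.34 in IBA (n = 5 each). Its IBA animals were at 7.99, 8.41, 7.94, 8.29 and 8.78 and its LAr animals at 7.83, 7.55, 7.88, 7.86 and 7.76, without overlap, a difference of 0.60 log2 units (SE 0.190, 95% interval 0.20 to 0.99, limma q = 0.032). The call was lost without IBA 104, IBA 70, LAr 111 or LAr 116, without IBA 70, Ent 66 and SpD 130 together, in experiment 2 alone, with all 31 animals and with the pair alone. Between IBA and LAr 2 members were called (4.26%), where 18.0% of all genes were and 9.93% were higher in IBA, Psmb8 and Psmc3ip, both higher in IBA. These 2 were also the members without overlap, where 13.7% of all genes had none. The count was 7 without IBA 171, and 1 without IBA 104, LAr 111 or LAr 116, and no share of all genes is given for those fits. With the medians of the animals made equal 6 of the 47 members were called, beside 2432 of the 12863 genes. Of these members 2 were higher (Psmb8 and Psmc3ip) and 4 lower in IBA (Psmb1, Psmb7, Psmc1 and Psmc3).

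Psmb9 and Psmb10 had the same sign without passing the test, 0.30 (95% interval -0.01 to 0.62) and 0.22 (-0.08 to 0.51). Psmb9 lies near the limit of 7 that the authors set for keeping a gene, with values from 6.92 to 7.75. Between SpD and IBA, Psmb8 differed by -0.74 within experiment 1 and by 0.19 within experiment 2, so the direction was not shared by the experiments, and SpD 84 (8.52) and SpD 130 (8.20) were the high animals. No immunoproteasome gene was called for the season over both experiments, whereas Psmb8 and Psmb10 were called lower in hibernation in experiment 2 alone.

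Other genes moved with Psmb8. Psmb8 and Psmb9 neighbour Tap2 and Tap1, genes of the peptide transporter for antigen presentation, in the same RefSeq annotation. Of 8 genes of interferon response and antigen processing, 3 were called between IBA and LAr, all higher in IBA: Irf1 (0.64), Tap1 (0.58) and Nlrc5 (0.78). Among all genes 18.0% were called in this comparison and 9.93% were higher in IBA. Of the 6 leukocyte markers measured, 3 were also called higher in IBA, Coro1a (1.22), Lcp1 (1.03) and Cd74. The difference was above 0 for 5 of the 6, while Cd79a, which was not called, lay lower in IBA (-0.39). The mean of the 6 leukocyte markers ranged from 8.43 to 9.52 in IBA and from 8.08 to 8.27 in LAr, and IBA 70 was the highest in both that mean and Psmb8. Ptprc, the pan-leukocyte marker, was not among the genes of this table. In the 29 animals the residual correlation of the immunoproteasome genes with the leukocyte markers had a median of 0.52 over 18 pairs, and 0.65 among the 3 genes themselves. The part of leukocytes in the difference of Psmb8 was not tested.

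**Figure D4:**
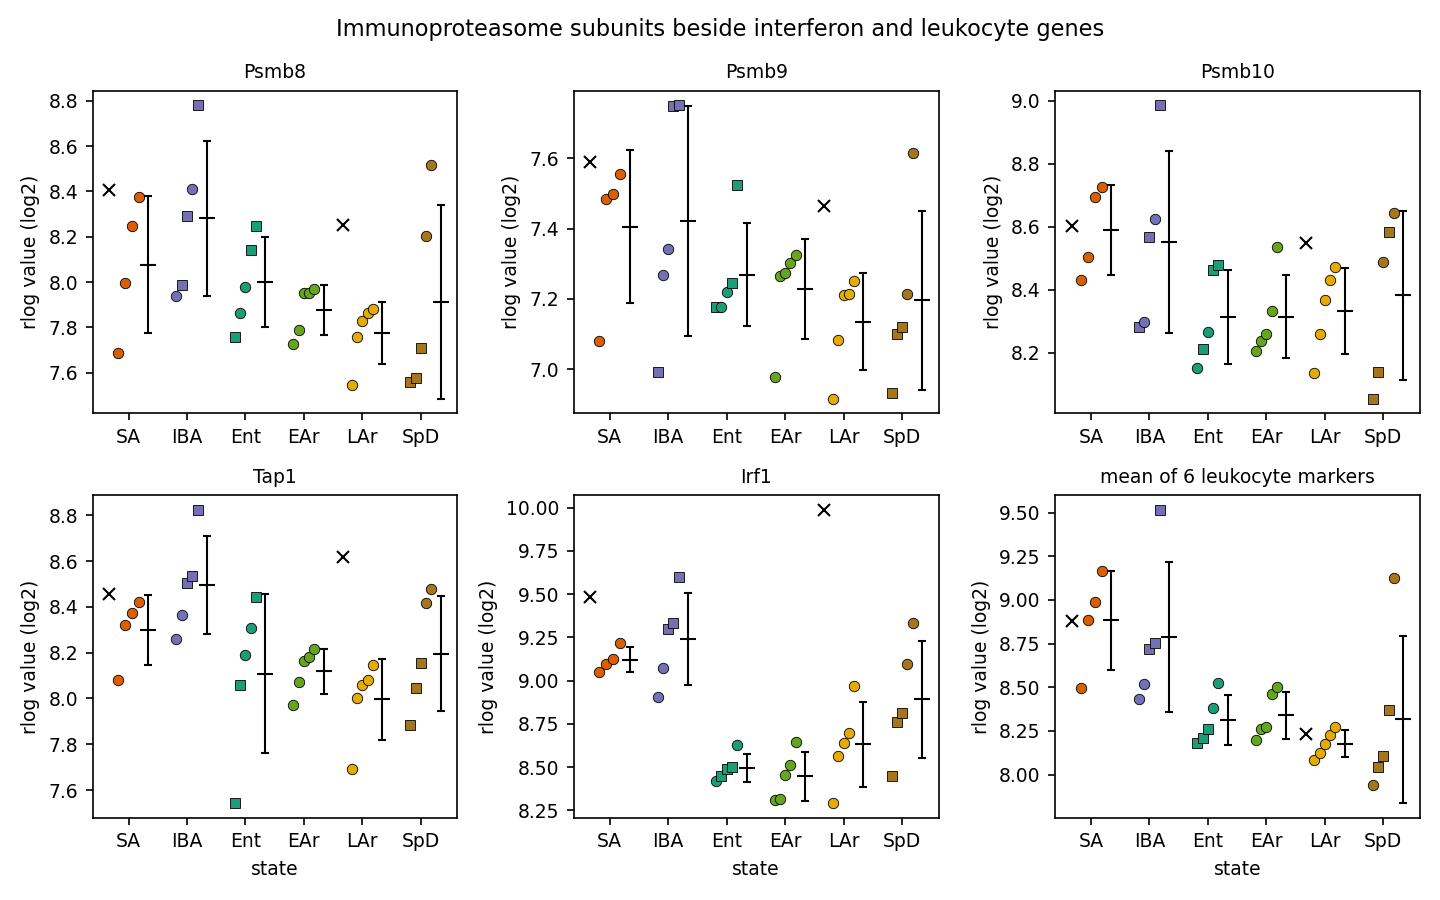
Rlog values (y axis, log2) of Psmb8, Psmb9, Psmb10, Tap1 and Irf1 and the mean of 6 leukocyte markers in each animal by state (x axis), with squares for experiment 1, circles for experiment 2, black crosses for K137 (SA) and K113 (LAr), and the mean with its SD beside the points. IBA lies above LAr for Psmb8 and for the leukocyte markers, and IBA 70, at 8.78 and 9.52, is the highest point of each.

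Psmc3ip, which is no proteasome gene, was at 7.99, 7.85, 7.76, 7.63 and 7.71 in IBA and at 7.52, 7.41, 7.40, 7.56 and 7.18 in LAr, a difference of 0.43 (SE 0.119, limma q = 0.016) without overlap. The call was lost in experiment 2 alone, with all 31 animals and with the pair alone.

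Subunit genes also moved together from animal to animal within a state. After the state, sex and experiment were removed, the correlation between 2 genes had a median of 0.77 over the 21 pairs of the alpha ring, 0.72 over the 21 pairs of the beta ring, 0.69 between the rings and 0.59 between the core and the ATPases. Between core genes and the genes outside the family the median was -0.01. These are descriptions over 29 animals that share a normalisation. Psmd1 and Psmd2, the large scaffold subunits of the base, and the lid subunit Psmd3, which were singled out after their values were seen, correlated with each other (median 0.84 over 3 pairs) and negatively with the alpha ring (median -0.49, with 16 of 21 pairs below 0).

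That negative relation rested on few animals. IBA 70 had a mean of 11.39 over the alpha ring and 11.99 over Psmd1, Psmd2 and Psmd3, and Ent 66 had 11.37 and 11.90. These were the 2 highest alpha ring means of the 31 animals, and Ent 66 had the lowest mean of Psmd1, Psmd2 and Psmd3 of all. Both animals were below the 4 others of their state in each of those 3 genes. IBA 75 showed the opposite, with all 7 alpha genes below the other IBA animals (median difference -0.32). IBA 70, Ent 66 and IBA 75 were all in experiment 1. Alpha ring means ran from 10.85 to 11.39 in experiment 1 and from 10.88 to 11.21 in experiment 2. The part of the experiment in the pattern was not tested. SpD 130 was low in the core and the cap, with 22 of the 31 constitutive subunits of core and cap below the other SpD animals. Over all genes the share below the other animals of the state was 28.4% in SpD 130, 26.9% in IBA 75, 34.1% in Ent 66 and 22.2% in IBA 70, and the share above them was 32.5% in Ent 66 and 25.5% in IBA 70. Without IBA 70, Ent 66 and SpD 130, the median correlation of the alpha ring with Psmd1, Psmd2 and Psmd3 was 0.00 over 26 animals, 0.18 for the beta ring with them, and 0.66 between the rings. No value in the table gives RNA quality or depth for these animals.

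**Figure D5:**
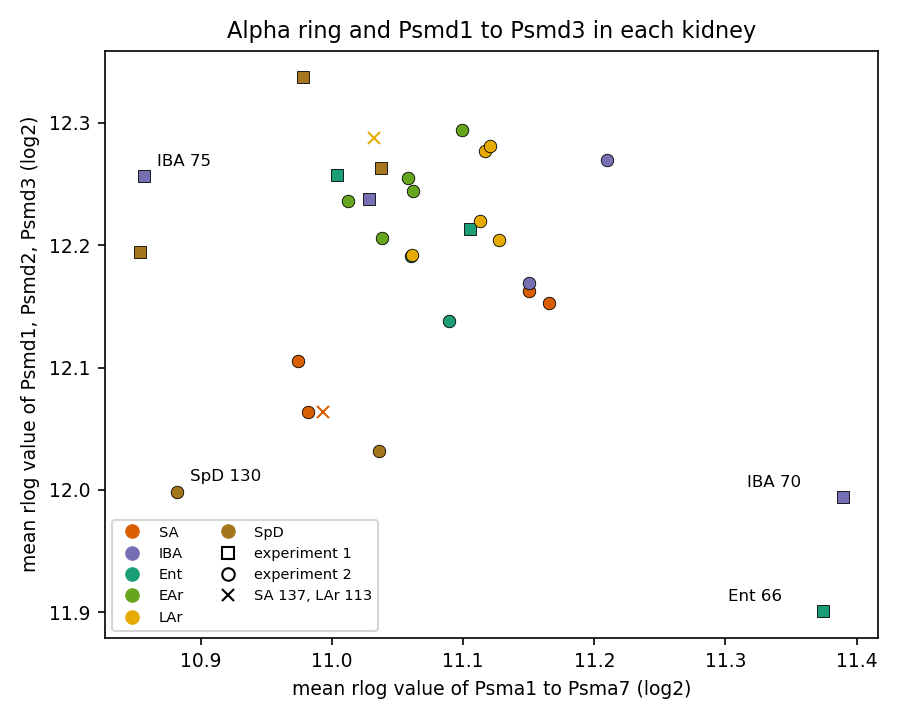
The mean rlog value of Psmd1, Psmd2 and Psmd3 (y axis, log2) against that of Psma1 to Psma7 (x axis, log2) in each of the 31 animals, coloured by state, with squares for experiment 1, circles for experiment 2 and crosses for K113 and K137. IBA 70 and Ent 66 lie alone at the lower right, at 11.39 and 11.37 on the x axis, while the other animals lie to the left of 11.21 or at that value.

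Genes that work with the proteasome were read from a list of 20 shuttle factors, adaptors, deubiquitinases and maturation factors. Across the 6 states 7 were called (35.0%, against 46.1% of all genes), among them Ubqln1, which carries ubiquitinated proteins to the proteasome, Ube3c, a ligase on the cap, Fbxo7, the thioredoxin-like Txnl1, the core maturation factor Pomp and the ATPase assembly factor Paaf1. For the season 4 of the 20 were called (against 33.4% of all genes), among them Fbxo7 and ECPAS, which were higher, and Pomp, which was lower (-0.11, SE 0.037, limma q = 0.028). Pomp was also lower in IBA than in SA (-0.21, limma q = 0.025). Paaf1 rose from IBA to Ent, by 0.32 (SE 0.083, limma q = 0.015), while Ube3c (-0.24) and Ubqln1 (-0.17) fell. Of the 5 genes that control proteasome transcription, Nfe2l1, Nfe2l2, Ddi2, Ngly1 and Syvn1, none was called in any comparison by limma, and at most 2 had an unadjusted p below 0.05 (SA against SpD).

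The animals set aside differed from their groups in the proteasome genes as well. In K137, 14 of the 31 constitutive subunits lay below the 4 other SA animals and none above them. Psmd6 was at 11.56 in K137, against 11.72 to 11.98 in the others. In K113, 17 of the 31 lay below the 5 other LAr animals and 5 above. The largest difference was in Psme4, at 10.92 in K113 against 11.30 to 11.51 in the others. Psmb8 was above the others in both, at 8.41 in K137 and 8.25 in K113. Over all genes, K137 was above the other SA animals in 33.9% and below them in 29.5%, and K113 was above the other LAr animals in 35.6% and below them in 37.2%. Psme3 was at 11.44 in K137, the lowest of the 31 animals, and with both animals included its F test and seasonal difference were still called.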

How the data were processed

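Poly(A) RNA of 31 kidneys was sequenced in experiment 1 (9 animals, TruSeq kit) and experiment 2 (22 animals, Nugen kit). Per the paper and the submitters' processing notes, adapters were cut by cutadapt, reads that HISAT2 placed on the mitochondrial genome were dropped, and Salmon quantified transcripts on HiC_Itri_2. Counts were turned into regularised log (rlog) values, and limma took out the difference between experiments. The deposited table is thus on the log2 scale of rlog, made by the authors, which shrinks differences of low genes. The authors kept genes at 7 or more in most animals of a group, so each member had passed that limit. Counts and depth are not used here, so precision is the spread between animals. Values are not per gene length, so levels were compared only within a gene. Reads of proteasome pseudogenes could not be told apart here.

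Groups came from the labelled hibernation state. Limma 3.58.1 (R 4.3.3) was fitted to all 12863 genes, without further filter, in 29 animals (state, sex, experiment, variance trend), with Benjamini-Hochberg adjustment over all genes and a threshold of 0.05. It was tested on simulated data. The comparisons were the F test, the season and 8 pairs of states. The members, gene lists and tests were chosen with earlier results of these data known. Named genes were the catalytic subunits, caps and inhibitor, the member with the widest range and the lowest F test q per role, and called members; others are named where a count is given. Symbols of all 47 members matched RefSeq (mIctTri1.hap1), which is another build, so no coordinates are given. Sequences and promoter motifs were not used here. Some genes of the lists are not reported here. Fits were repeated with all 31 animals, without experiment as a term, in experiment 2 alone, with a mean of at least 8, equal medians, a threshold of 0.001, no variance trend, each pair of states alone, and each of the 29 animals left out. Leaving out 3 animals together was chosen after seeing the data.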

Additional observations from a re-analysis of the deposited data

Results flagged for a closer look

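In each state the highest and lowest animal of 21 named members was compared with its neighbours by Dixon's test at 95%, over 126 sets, of which chance flags about 1 in 20, and 7 were past the limit. Ent 66 was high in Psma3, at 11.42 against 10.93 to 11.03 in the other Ent animals, and in Psmb1, at 12.19 against 11.86 to 11.96. Ent 64 was high in Psmb9, at 7.52 against 7.18 to 7.24, and in Psme1, at 11.22 against 10.96 to 11.03. Psmb9 was low in SA 139, at 7.08 against 7.49 to 7.56, and in EAr 158, at 6.98 against 7.27 to 7.32. Psmg3 was low in LAr 115, at 9.30 against 9.49 to 9.56.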

How the results depend on the processing

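No called difference of a named member changed direction. No paired analysis was possible because each animal number occurs in 1 state only. The numbers of members called moved as follows. Across the 6 states (8), it was 14 in experiment 2 alone, 5 without the 3 animals and 1 at 0.001. For the season (9), it was 18 in experiment 2 alone and 1 at 0.001. For SA against SpD (1), it was 9 in experiment 2 alone, 2 with equal medians, and 0 with all 31 animals, without the term for experiment, at 0.001 and without the 3 animals. For IBA against SA (2), it was 1 with all 31 animals, 4 without the 3 animals, and 0 at 0.001 and with the pair alone. For Ent against IBA (2), it was 1 with all 31 animals and 0 in experiment 2 alone, at 0.001 and with the pair alone. For IBA against LAr (2), it was 1 with a mean of at least 8, 6 with equal medians, and 0 with all 31 animals, in experiment 2 alone, at 0.001 and with the pair alone. For SpD against IBA (2), it was 1 with all 31 animals, 5 in experiment 2 alone, and 0 at 0.001 and with the pair alone. With animals left out one at a time, the counts ran from 3 to 11 across the states, 4 to 14 for the season, 0 to 2 for SA against SpD, 1 to 4 for IBA against SA, 1 to 3 for Ent against IBA, 1 to 7 for IBA against LAr, 1 to 7 for SpD against IBA and 0 to 2 for IBA against EAr. Over all genes, experiment 2 alone called 6831 across the states, 5022 for the season and 3401 for SA against SpD. As fitted, these numbers were 5924, 4294 and 1348. The cause of the moves in the member counts was not tested, except that a stricter threshold calls fewer by construction. For SA against SpD the 0 came without SpD 130, and 2 without IBA 75, IBA 171, IBA 70, Ent 62, Ent 64, Ent 66, SpD 83 or SpD 77. For IBA against SA the 1 came without IBA 104 or SA 141, and the 4 without IBA 75, IBA 70 or Ent 66. For Ent against IBA the 1 came without IBA 75, IBA 104, IBA 69, LAr 112, Ent 155 or Ent 167. For IBA against EAr the 2 came without IBA 171, and 1 without Ent 167, Ent 64 or IBA 70. EAr against Ent and LAr against EAr were at 0 in all alternatives run. The search for promoter motifs was not run. Depth is unknown. The median half-width of a member's 95% interval was 0.09 log2 units for the season and 0.15 to 0.17 between pairs of states.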
